A study of Mus musculus with 2 samples.

Results

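The genes described here are 8 shear-response and vascular tone genes of endothelial cells (ECs): Klf2, Klf4, Nos3, Edn1, Ednrb, Piezo1, Ptgs1 and Ptgis. They were chosen by name for their known roles, with earlier results of these data known. All 8 are listed both among the 17641 genes of the normal table and among the 15644 genes of the tumor table. Single cells were profiled in droplets in 2 libraries, 1 per condition. Normal ECs (NECs) were CD45-/CD31+ cells sorted from pooled mammary glands, with labels that give C57BL/6 mice of 6 to 8 weeks. Tumor ECs (TECs) were CD45-/CD31+ cells sorted from pooled E0771 tumors, which grow in the mammary gland from a mouse mammary carcinoma line. No strain or age is labelled for the tumor library. CD31, the protein of Pecam1, is a surface marker of ECs, and both tissues were minced and digested with collagenase at 37 °C before the sort. Some labels of the NEC library name TECs or E0771, while its title and the design text speak of normal glands, and it is taken here as normal.

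Blood flowing over the vessel wall exerts shear stress, which ECs sense through the ion channel Piezo1 and through a junctional complex that holds Pecam1, Cdh5 and the receptor Kdr. A kinase cascade that ends in MEF2 factors then induces Klf2 and Klf4, zinc finger transcription factors that keep the endothelium quiescent and anticoagulant. Among the products that set vessel tone, Nos3 makes the dilator nitric oxide, Edn1 encodes the constrictor endothelin, Ednrb is the receptor through which ECs answer endothelin with dilators and clear it, and Ptgs1 and Ptgis act in turn to make prostacyclin. Klf2 and Klf4 are also immediate early genes that rise while tissue is dissociated, as Fos and Atf3 do.

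Klf2 and Klf4 varied together in what follows, and Edn1 was highest in cells with arterial gate genes. The stretches upstream of these 3 genes are shown. Each runs from 250 to 51 bases before the RefSeq start of the gene (GRCm38.p6), 5′ to 3′ on the strand of the gene. Capitals mark matches, on either strand, to the MEF2 core CTANNNNTAG, the KLF-type box CACCC or the AP-1 site TGANTCA that FOS proteins bind. Klf2 is on the plus strand at chr8:72318812-72319011, Klf4 on the minus strand at chr4:55532526-55532725 and Edn1 on the plus strand at chr13:42301226-42301425.
Klf2: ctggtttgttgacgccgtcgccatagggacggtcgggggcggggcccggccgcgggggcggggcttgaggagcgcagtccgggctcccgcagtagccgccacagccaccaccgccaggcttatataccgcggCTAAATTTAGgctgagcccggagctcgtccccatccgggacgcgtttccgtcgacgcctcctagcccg
Klf4: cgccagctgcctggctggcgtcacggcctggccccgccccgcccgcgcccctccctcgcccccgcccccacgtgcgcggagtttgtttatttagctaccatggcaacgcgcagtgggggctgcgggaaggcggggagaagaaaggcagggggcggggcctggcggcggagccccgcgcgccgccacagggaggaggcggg
Edn1: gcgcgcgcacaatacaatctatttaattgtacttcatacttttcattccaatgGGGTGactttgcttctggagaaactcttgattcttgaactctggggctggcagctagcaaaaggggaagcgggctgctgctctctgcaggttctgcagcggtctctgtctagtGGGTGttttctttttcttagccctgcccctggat

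The MEF2 core was found in Klf2 alone of the 6 members with a RefSeq window (Klf2, Klf4, Edn1, Ednrb, Piezo1 and Ptgs1), beginning 118 bases before the start, and 2.58% of 32851 windows of the same length held one. The CACCC box had 2 matches each in Edn1 and Ednrb and 1 in Piezo1, and in 44.4% of all windows. No AP-1 match was present in these 6 windows, against 5.57% of all windows. A match describes letters only and says nothing of binding, and its absence from these 200 bases says nothing of the factor.

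Cells were kept with at least 200 genes, under 10% mitochondrial UMIs (unique molecular identifiers, each standing for 1 captured transcript), no UMI of Ptprc, Myh11, Epcam or Cspg4, and at least 1 UMI of Cdh5 or Pecam1. In the tumor library Cdh5 plus Pecam1 also had to exceed Rhox5 plus Hmga2 plus Krt8, which mark the cancer cells. Of 9047 normal barcodes 4940 NECs were kept, with a median of 2976.5 UMIs, and of 704 tumor barcodes 261 TECs, with a median of 16989 UMIs. All 10 endothelial markers were present in both, at 8733 and 8290 CPM (UMIs of the genes per 1000000 UMIs). Rhox5 plus Hmga2 were at 5.60 CPM in the kept TECs and 0.289 CPM in the NECs. Transcripts of salivary glands were found in the NECs at 1772 CPM, with 4 of 5 markers present, and none in the TECs. The libraries shared 3 barcodes, none of them among kept cells.

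With 1 library per condition no test was possible, since cells of 1 library are not replicates. Levels are given as CPM of the UMIs summed over the cells of a group with a Poisson 95% interval, ratios with an exact conditional binomial 95% interval and shares of cells with a Clopper-Pearson 95% interval. All of these cover counting error only. A gene was counted as higher or lower when its ratio was at least 2-fold, among genes with at least 10 UMIs over both groups. A group without a UMI was set at 3 UMIs and never counted as the higher one. Shares of cells were compared after random draws of 1900 UMIs from every cell (thinning), for which 1109 NECs and 22 TECs were too shallow. Levels are compared between groups for each gene and not between genes, since gene length was not taken into account.

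Normal cells were divided by gate genes into arterial cells (a UMI of Gja5 or Bmx, no venous one), venous cells (a UMI of Lbp, Ackr1 or Vwf, no arterial one) and other cells. There were 179 arterial, 927 venous and 3612 other cells, with medians of 3081, 3642 and 2793 UMIs, and 222 cells with UMIs of both kinds were left out of these comparisons. The gates were checked with the other arterial and venous markers on the lists. The remaining arterial markers were at 4298 CPM in arterial cells, 828 CPM in venous and 999 CPM in other cells. The remaining venous markers were at 1690 CPM in venous cells against 496 and 435 CPM. Markers of high endothelial venules were at 19915 CPM in venous cells, 254 CPM in arterial and 1551 CPM in other cells. Lymphatic markers were at 996 CPM in venous cells against 211 and 177 CPM, so that the venous gate did not hold ordinary veins alone.

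Arterial cells differed from venous cells in most of the 8 genes. Klf2, Klf4, Edn1 and Ednrb were each at least 2-fold higher in arterial cells, while Ptgs1 was lower. Of the 8 members 4 were thus higher, where 6.98% of 11359 genes were, and 1 was lower, where 9.65% were. The median log2 ratio of all these genes was 0.023. When cells were thinned to equal depth 2 members were higher, Edn1 and Ednrb. Klf2 and Klf4 then fell short of 2-fold, at means of 4.07 against 2.30 and 2.454 against 1.229 UMIs per cell. Piezo1 differed little. The 222 cells left out held the remaining arterial markers at 3820 CPM and the remaining venous ones at 796 CPM. They had Edn1 at 392.2, Klf2 at 1772, Klf4 at 862 and Ptgs1 at 74.6 CPM. Their Ednrb, at 42.6 CPM (30.46 to 58.05), was not above that of venous cells.

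The transcription factors were both highest in arterial cells. Klf2 was at 2313 CPM (2198 to 2433) in arterial cells, 1602 CPM (1579 to 1625) in other cells and 1128 CPM (1096 to 1160) in venous cells. No 2 of these intervals overlapped, and the ratio of arterial to venous cells was 2.05-fold (1.93 to 2.17). Klf4, which lies on chromosome 4 from 55527143 to 55532466, followed the same order, at 1409.7 CPM (1319.9 to 1504), 842 CPM (825 to 858) and 618 CPM (594 to 642). Its arterial level was 2.28-fold the venous one (2.11 to 2.46). Thinned to equal depth, 86.5% of arterial (79.8 to 91.7%) and 70.1% of venous cells (66.8 to 73.2%) held a Klf2 UMI, and 67.4% and 51.7% a Klf4 UMI. Removed epithelial cells were 698 cells with an Epcam UMI and none of Cdh5 or Pecam1 (median 10806 UMIs). With salivary markers at 115729 CPM and epithelial markers at 15144 CPM, they were not mammary epithelium alone. They held a Klf2 UMI in 16.3% and a Klf4 UMI in 47.7%, so that a Klf4 UMI does not mark an EC. The immediate early genes moved with this order, with Fos 1.81-fold and Atf3 2.13-fold higher in arterial than in venous cells.

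Nitric oxide synthase was raised toward the arterial side by less. Nos3 (chromosome 5, from 24364810 to 24384474) was at 140.1 CPM (113 to 172) in arterial cells, 89.4 CPM (80.6 to 99.0) in venous cells and 66.5 CPM (61.9 to 71.4) in other cells. The ratio of arterial to other cells was 2.11-fold (1.68 to 2.62), and that of arterial to venous cells 1.57-fold (1.23 to 1.97). Nos3 UMIs were held by 13.8% of thinned NECs (12.7 to 14.9%) and by 0.734% of epithelial cells (0.239 to 1.71%), in which the gene should be absent.

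Endothelin and its receptor had different patterns. Edn1 (chromosome 13, from 42301476 to 42307990) was at 295 CPM (255 to 340) in arterial cells, 101 CPM (91.3 to 111) in venous cells and 45.2 CPM (41.4 to 49.3) in other cells. The arterial level was 6.54-fold that of other cells (5.51 to 7.73), higher than for 99.0% of the genes compared. Arterial cells were 3.62% of the NECs and held 12.8% of the Edn1 UMIs. The cells with UMIs of both gates, which reached 392.2 CPM, held another 24.5%. Venous cells held 28.1% and other cells 34.7%. Edn1 UMIs were found in 31.2% of thinned arterial cells, 14.6% of venous cells and 5.79% of other cells, against 2.35% of epithelial cells.

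Of the 3 groups, Ednrb (chromosome 14, from 103814625 to 103844402) was instead lowest in venous cells. It was at 179 CPM (148 to 214) in arterial cells and 196 CPM (188 to 205) in other cells, whose intervals overlapped, and at 51.0 CPM (44.4 to 58.4) in venous cells. Venous cells were 3.85-fold below other cells, among the lowest 1.28% of the genes compared. The order of arterial and other cells changed with Fos and Atf3, genes of the immediate early response. Among thinned cells without a UMI of either, Ednrb was at 52.5 CPM (25.2 to 96.5) in arterial cells, on 10 UMIs, and at 159 CPM (146 to 172) in other cells, a log2 ratio of -1.59 (-2.66 to -0.70). It was -0.04 (-0.66 to 0.51) with 1 to 4 UMIs of these genes and 0.18 (-0.19 to 0.52) with 5 or more. In an unnamed cluster of 48 NECs that held 6 pericyte markers Ednrb was at 826 CPM, and without that cluster venous cells were still lower than other cells by more than 2-fold.

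Ptgs1, which starts prostanoid synthesis, was highest in venous cells. Ptgs1 (chromosome 2, from 36230426 to 36252272) was at 198 CPM (185 to 212) in venous cells, 109 CPM (103 to 115) in other cells and 29.2 CPM (17.6 to 45.7) in arterial cells, which held 19 UMIs of it. Venous cells had 6.78 times the arterial level (4.31 to 11.3), and 26.2% of thinned venous cells held a UMI against 3.55% of arterial cells and 0.441% of epithelial cells. The other cells, 73.1% of the NECs, held 57.8% of the Ptgs1 UMIs. Ptgis (chromosome 2, from 167191805 to 167240604) was scarce, with 17 UMIs in all NECs. Of these, 14 were in venous cells, 2 in cells with UMIs of both gates, 1 in other cells and 0 in arterial cells, where the interval reached up to 5.68 CPM. The ratio of venous to other cells was 38.5-fold with an interval of 5.87 to 1630.05. At equal depth Ptgis was found in no larger share of NECs (0.131%, 5 cells) than of epithelial cells (0.294%, 2 cells). Over all NECs its UMIs can thus not be told from background. By summed UMIs venous cells had 3.34 CPM (1.83 to 5.60), from 9 cells, against 0.647 CPM (0.237 to 1.41) in epithelial cells. The share of venous cells at equal depth was 0.368% (0.0759 to 1.07%). The smooth muscle markers, 5 of 6 of which had UMIs in venous cells, summed to 254 CPM there against 92.3 CPM in arterial and 62.3 CPM in other cells, and their part in the Ptgis level was not tested.

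Piezo1, the shear sensor (chromosome 8, from 122481698 to 122551329), was nearly even. It was at 80.0 CPM (59.8 to 105) in arterial cells, 92.1 CPM (83.1 to 102) in venous cells and 72.6 CPM (67.7 to 77.7) in other cells. Only the venous and other intervals did not overlap, at 1.27-fold (1.12 to 1.43), and the arterial interval held both other levels. The share of thinned cells with a Piezo1 UMI was 12.1% in arterial, 17.7% in venous and 12.03% in other cells, against 3.08% in epithelial cells.

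**Figure D1:**
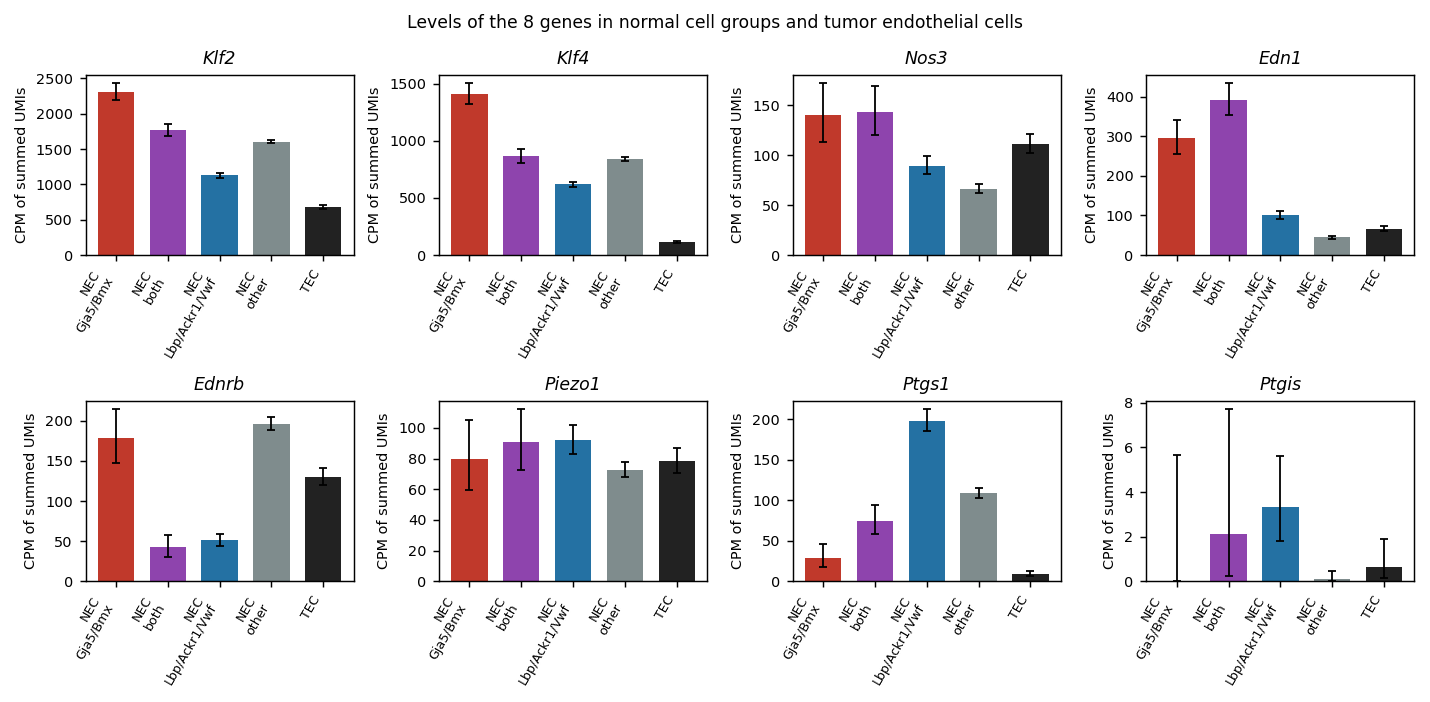
Level of each gene, as CPM of summed UMIs on a linear axis from 0, in normal cells of the Gja5/Bmx gate, of both gates, of the Lbp/Ackr1/Vwf gate and of no gate, and in the 261 TECs. Error bars are Poisson 95% intervals. Klf2 and Klf4 were highest in arterial cells, Edn1 in cells with arterial gate genes, Ptgs1 in venous cells, and Klf4 and Ptgs1 were lowest in TECs.

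Set against other normal cells, Edn1 and Nos3 were at least 2-fold higher in arterial cells and Ptgs1 at least 2-fold lower, 2 and 1 of the 7 members with enough UMIs, where 7.42% and 7.84% of all genes were. In venous cells Edn1 and Ptgis were higher and Ednrb lower, 2 and 1 of 8 members, where 6.22% and 5.52% of all genes were. The gate chosen for arterial cells mattered for the transcription factors. Clusters, formed without the 8 genes and without immediate early genes, gave 1 arterial-like cluster of 416 cells and an unnamed cluster of 237 cells with 9 of the 12 arterial markers. When only the arterial-like cluster stood for arterial cells, Klf2 was 0.10 and Klf4 0.73 lower on the log2 scale than in other cells, in place of 0.53 and 0.74 higher by the gate. With the unnamed cluster counted too, they were 0.58 and 0.71 higher. Edn1 and Ptgs1 kept their directions in all 3.

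The same pathways were followed through lists of genes. Of the 12 genes listed for Klf2, Klf4 and their known targets, 3 were at least 2-fold higher in arterial than in venous cells (Edn1, Klf4 and Klf2) and 2 lower. The lower ones were Nqo1, an antioxidant enzyme (log2 ratio -2.09), and Angpt2, which destabilizes vessels (-1.35). The median of the list was 0.80, against 0.023 over all genes, of which 6.98% were higher and 9.65% lower. Of 21 shear sensing and relay genes 1 was higher, the cation channel Trpv4 (1.52, from 67.7 against 23.6 CPM). None of 18 nitric oxide genes differed by 2-fold. Of 11 prostanoid genes 3 were lower, among them Ptgs1 and the prostaglandin transporter Slco2a1 (-1.74), while Ptgds, a prostaglandin D synthase, had 59 UMIs in venous and 0 in arterial cells. Of 3 endothelin genes 2 were higher, Edn1 and Ednrb, and the third, the converting enzyme Ece1, was at 0.52.

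Other regulators of tone also divided by vessel. Gja5, which formed the arterial gate, is left aside. Among all genes 6.98% were higher in arterial than in venous cells and 9.65% lower. Of the other 21 genes of the list 6 were higher in arterial cells, led by the potassium channel Kcnn4 (log2 ratio 3.44) and the gap junction gene Gja4 (3.08), both of which serve endothelium-dependent dilation. The 3 that were lower were the apelin receptor Aplnr (-3.03), Calcrl, a receptor subunit for adrenomedullin (-2.23), and the natriuretic peptide receptor Npr1 (-1.49). Of the 22 immediate early genes 9 were higher in arterial cells, led by the heat shock genes Hspa1a (2.26) and Hspa1b (1.68) and by Klf6 (1.17), and 1 was lower, Myc (-2.46). The median of that list was 0.83.

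Klf2 and Klf4 were compared within classes of Fos plus Atf3. Thinned NECs were divided into cells without a UMI of either, cells with 1 to 4 and cells with 5 or more, which took up 42.2%, 24.8% and 33.0% of them. Klf2 was at 847 CPM (824 to 871), 991 CPM (961 to 1023) and 2626 CPM (2584 to 2668) in these classes, and Klf4 at 348, 591 and 1477 CPM. Cells with 5 or more UMIs thus had 3.10-fold the Klf2 (3.003 to 3.200) and 4.24-fold the Klf4 (4.04 to 4.45) of cells without, and held 62.3% and 65.4% of the UMIs of both genes. The tone genes behaved otherwise. Nos3, Edn1, Piezo1 and Ptgs1 were at 0.731, 0.833, 0.802 and 0.732 of the level in cells without Fos or Atf3, while Ednrb was higher, by 1.94-fold (1.76 to 2.14), and Ptgis was at 6.33-fold (1.41 to 58.3) on few UMIs. Across thinned NECs the correlation of log2(UMIs + 1) was 0.46 for Klf2 and Fos, 0.49 for Klf4 and Fos and 0.47 for Klf2 and Klf4 (Pearson, 3831 cells of 1 library that share its depth and handling).

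Arterial cells kept the higher level within these classes, which did not make Fos and Atf3 equal. With 5 or more UMIs Fos was at 6246 CPM in arterial and 5102 CPM in venous cells, and Atf3 at 1993 and 1385 CPM. In cells without a UMI after thinning, full counts gave Fos at 21.0 CPM in arterial and 66.6 CPM in venous cells. Klf2 was higher in arterial than in venous cells by a log2 ratio of 0.97 (0.77 to 1.16) in cells without Fos or Atf3, 0.62 (0.37 to 0.86) in cells with 1 to 4 UMIs and 0.73 (0.62 to 0.84) in cells with 5 or more. Each was below the 1.04 of all cells. Klf4 was higher by 0.89 (0.56 to 1.20), 0.28 (-0.07 to 0.61) and 0.95 (0.82 to 1.08), so that in the middle class the interval held 0. Edn1 was higher in all classes, by 1.78, 2.12 and 1.33, and Ptgs1 lower, with 4, 1 and 13 UMIs in arterial cells.

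**Figure D2:**
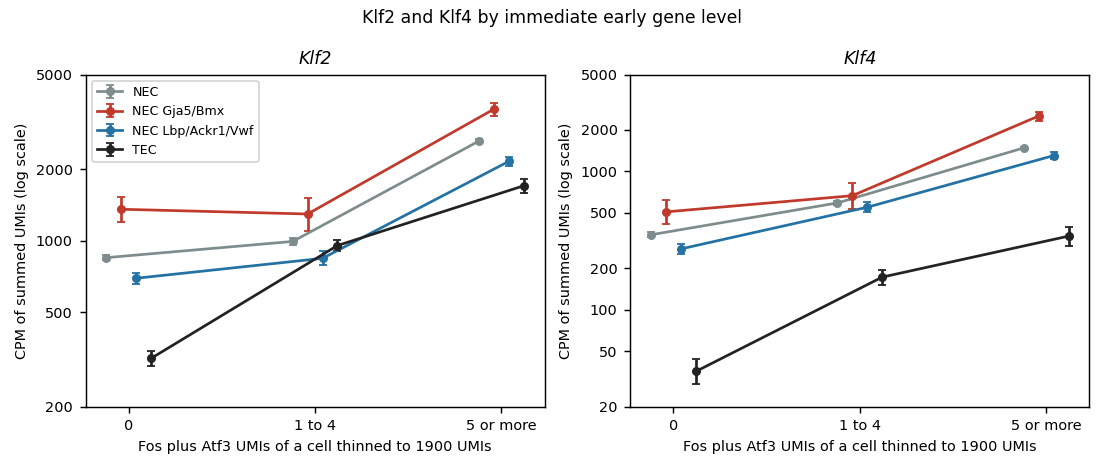
CPM of Klf2 (left) and Klf4 (right), on log axes, in cells with 0, 1 to 4 and 5 or more UMIs of Fos plus Atf3 after thinning to 1900 UMIs, for NECs, arterial and venous NECs and TECs, with Poisson 95% intervals. Both genes were highest in cells with 5 or more UMIs in each group, and Klf4 was lower in TECs than in NECs in each class.

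TECs differed from NECs mainly in 3 of the 8 genes, all of them lower. Klf2, Klf4 and Ptgs1 were at least 2-fold lower and no member was 2-fold higher, 3 and 0 of 8. Among 13061 genes 24.1% were at least 2-fold lower and 11.2% higher, with a median log2 ratio of -0.23. When that median was set to 0, 15.6% were higher and 18.8% lower, and Klf2 at -0.94 no longer reached 2-fold. Summed levels do not part fewer expressing cells from less RNA per cell. The shares of thinned cells do not part them either, since both lower the share of cells with a UMI.

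Klf2 was at 679.7 CPM (656 to 704) in TECs and 1523 CPM (1505 to 1542) in NECs, 2.24-fold lower. At equal depth 48.1% of TECs (41.6 to 54.7%) and 75.4% of NECs (74.0 to 76.8%) held a UMI. Klf4 was at 114 CPM (105 to 124) and 809.8 CPM (797 to 823), 7.09-fold lower, and 13.8% of TECs (9.70 to 18.8%) against 58.5% of NECs held a UMI. Fos and Atf3 were lower too, by 4.60-fold and 2.65-fold, as were 16 of the 22 immediate early genes, whose median was -2.03. Among TECs 61.1% of thinned cells had no UMI of Fos or Atf3 and 9.62% had 5 or more.

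Within classes of Fos plus Atf3 the deficits of the transcription factors diverged. The classes did not make Fos and Atf3 equal. With 5 or more UMIs Fos was at 1775 CPM in TECs and 5647 CPM in NECs, and Atf3 at 827 and 1378 CPM. In cells without a UMI after thinning, full counts gave Fos at 83.4 CPM in TECs and 56.8 CPM in NECs. The part of these differences in the ratios was not tested. Klf4 was lower in TECs by a log2 ratio of -3.28 (-3.60 to -2.98) in cells without Fos or Atf3, -1.78 (-1.97 to -1.60) in cells with 1 to 4 UMIs and -2.12 (-2.35 to -1.90) in cells with 5 or more. Klf2 was lower by -1.41 (-1.52 to -1.30) in cells without, but was at -0.06 (-0.14 to 0.03) in cells with 1 to 4, where TECs had 953 CPM and NECs 991 CPM, and at -0.63 (-0.73 to -0.53) in cells with 5 or more, of which there were 23 TECs. Cancer-marked cells that had been removed from the tumor library (184 cells) held Klf2 at 1489 CPM and Klf4 at 35.2 CPM. Their part in the Klf2 of the kept TECs was not tested, and among TECs without a Rhox5 or Hmga2 UMI the log2 ratios were -1.10 for Klf2 and -2.76 for Klf4. With the cancer-marked cells kept, Klf2 was at -0.30. Among cells past the venous gate it was at -0.73.

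Of the prostacyclin enzymes Ptgs1 was lower in tumors. It was at 9.47 CPM (6.88 to 12.7) in TECs, from 44 UMIs, and at 126 CPM (121 to 131) in NECs, 13.3-fold lower, among the lowest 2.27% of genes. It was present in 2.93% of thinned TECs (1.19 to 5.94%) and 18.0% of NECs, while 2.94% of the cancer-marked cells held it, so that its share in TECs was no higher than in cells of another type. Its log2 ratio stayed between -3.43 and -4.04 in the 3 classes of Fos plus Atf3. Ptgis had 3 UMIs in TECs and 17 in NECs, and a ratio of 0.658 (0.124 to 2.28) that held 1.

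Nitric oxide synthase was higher in tumors. Nos3 was at 111 CPM (102 to 122) in TECs and 79.0 CPM (74.8 to 83.3) in NECs, 1.41-fold higher (1.27 to 1.56), and 20.9% of thinned TECs (15.9 to 26.6%) against 13.8% of NECs held a UMI. Cancer-marked cells held it in 1.18%, at 3.10 CPM. The log2 ratio was 0.41, 0.65 and 0.40 in the 3 classes of Fos plus Atf3, the last with an interval that held 0. Piezo1 was at 78.1 CPM (70.3 to 86.6) in TECs and 78.5 CPM (74.4 to 82.8) in NECs, a ratio of 0.995 (0.884 to 1.12). By the mean of per-cell CPM its log2 ratio was 0.39 (0.22 to 0.55).

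Edn1 and Ednrb differed little between the libraries as a whole and in opposite ways within the gates. Edn1 was at 66.7 CPM (59.5 to 74.6) in TECs and 86.8 CPM (82.5 to 91.3) in NECs, and Ednrb at 129.8 CPM (120 to 141) and 152 CPM (147 to 158). Among cells past the venous gate, which 152 TECs were, Ednrb was 139 CPM in TECs and 51.0 CPM in NECs, a log2 ratio of 1.45 (1.21 to 1.69), whereas among cells past no gate it was 86.2 and 196 CPM, a log2 ratio of -1.19. By summed UMIs Edn1 was lower in tumor cells past the venous gate (-0.67, 63.4 against 101 CPM) and higher in those past no gate (0.53, 65.1 against 45.2 CPM). Within TECs the summed levels of Edn1 in the 2 gates had overlapping intervals (55.0 to 72.7 and 51.1 to 81.7 CPM), where those of NECs were 2.23-fold apart. The 74 Edn1 UMIs of TECs past no gate came from 12 of 94 cells. At equal depth 10.9% of TECs past the venous gate (6.35 to 17.1%) and 2.60% of those past none (0.316 to 9.07%) held an Edn1 UMI. In NECs these shares were 14.6% and 5.79%, so that past no gate the share was not higher in TECs. Only 15 TECs had a UMI of Gja5 or Bmx, and no arterial comparison was made in the tumor. The gates did not part TECs by vessel as they did NECs, since the remaining venous markers were at 544 CPM in TECs past the venous gate and 414 CPM in those past none, and the remaining arterial markers at 621 and 507 CPM. TECs past the venous gate were deeper than those past none (medians of 20539 and 7159 UMIs), and the part of depth in this was not tested.

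**Figure D3:**
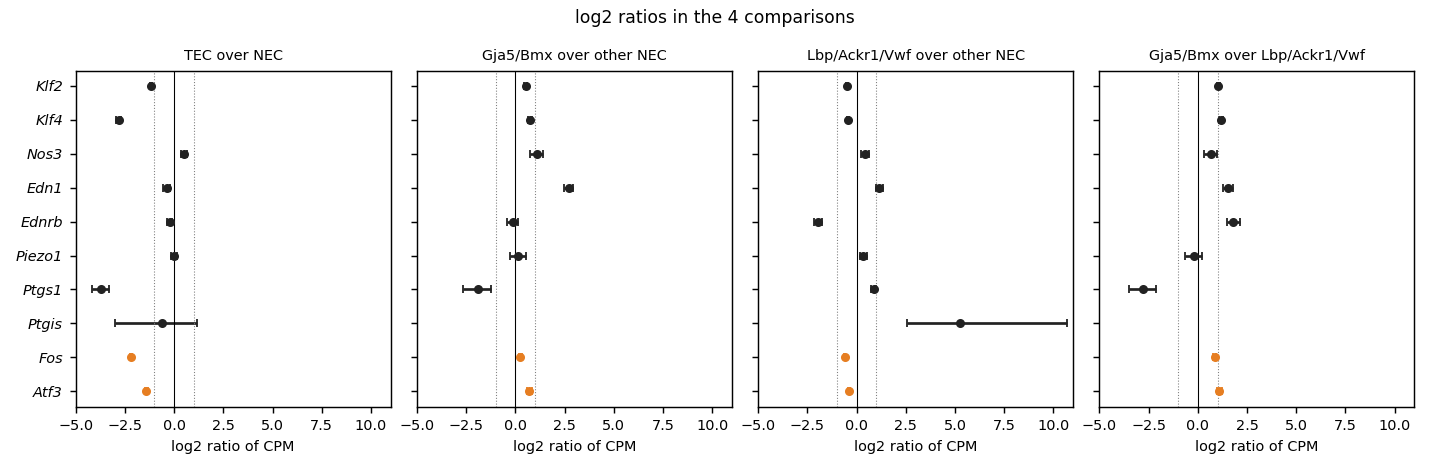
log2 ratio of CPM in each of the 4 comparisons for the 8 genes (black) and for Fos and Atf3 (orange), with exact conditional 95% intervals. Dotted lines mark 2-fold, and Ptgis is not drawn where a group had no UMI. Fos and Atf3 moved in the same direction as Klf2 and Klf4 in every panel, while Ptgs1 was lower in arterial and higher in venous cells.

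The lists set these genes in their pathways. Of the 12 Klf2 and Klf4 genes 7 were at least 2-fold lower in TECs, Klf2 and Klf4 themselves among them, and 1 was higher. The median log2 ratio of the list was -1.45. Of all genes 24.1% and 11.2% were lower and higher, and their median was -0.23. Cdkn1c, which holds cells out of the cycle, was at -5.45 and Thbd, the anticoagulant thrombomodulin, at -2.63 (53.0 against 329 CPM), whereas Angpt2 was at 4.82. Of 21 shear sensing and relay genes 7 were lower and 0 higher. Trpv4 was at -2.74, Mef2c, one of several MEF2 factors on the list, at -1.95 (176 against 681 CPM) and Pkd2, a cation channel, at -1.54. Of 15 prostanoid genes 9 were lower and 0 higher. The prostaglandin receptor Ptger4 had 1 UMI in TECs against 536 in NECs, and Ptgds had 0 against 88. In these medians a gene at 0 in one group stands at the bound that 3 UMIs give.

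The counts that follow stand beside all genes, of which 24.1% were at least 2-fold lower and 11.2% higher. In the nitric oxide list Ddah1, which breaks down an inhibitor of Nos3, was higher (1.56). The 3 of 20 genes that were lower, a smaller share than among all genes, answer nitric oxide in mural cells. They were subunits of soluble guanylate cyclase, Gucy1b1 (1 UMI against 100) and Gucy1a1 (0 against 199), and the kinase Prkg1 (0 against 57). Pericyte markers, 6 of 7 of which had UMIs in both libraries, were at 44.1 CPM in TECs and 147 CPM in NECs, and smooth muscle markers at 9.47 CPM (3 of 6) and 128 CPM (5 of 6). Their part in these levels was not tested. Of 4 endothelin genes 1 was lower, the receptor Ednra, on 1 UMI against 21 (chosen after its value was seen). Of 21 other tone regulators 3 were higher, namely Apln (5.35), the ligand of Aplnr, the dilator peptide Adm (4.54) and the potassium channel Kcnj2 (1.33). The 9 lower ones included Ace, which makes angiotensin II (-3.06, 20.9 against 174 CPM), and Npr3, a natriuretic peptide receptor (-2.72), and Agtr1a had 0 UMIs against 79.

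**Figure D4:**
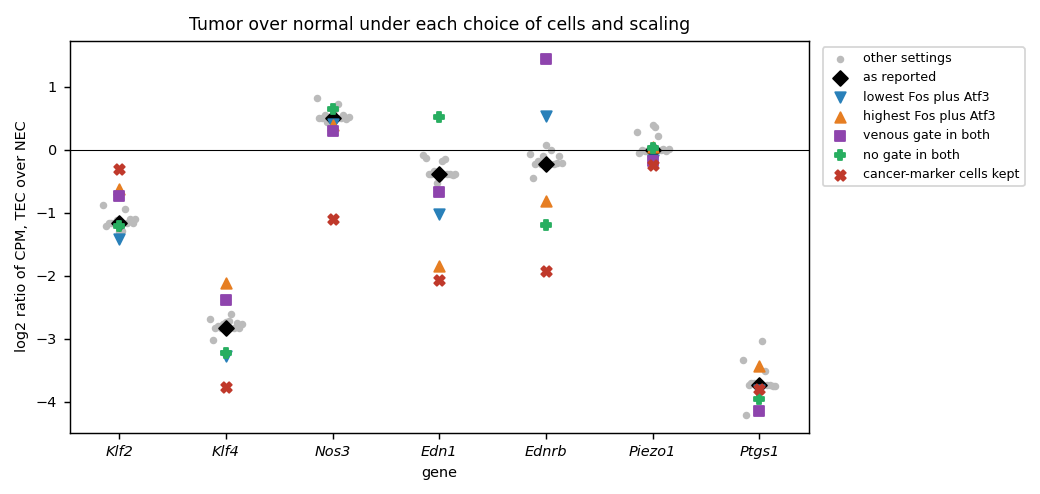
log2 ratio of TECs over NECs for 7 genes under each choice of cells and scaling, with the reported value as a black diamond. Klf2, Klf4 and Ptgs1 stayed below 0 under every choice shown, while Edn1, Ednrb, Piezo1 and, with cancer-marked cells kept, Nos3 changed sign.

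Clusters of each library alone showed how the genes were spread. The 15 NEC clusters ranged from 307 to 4848 CPM in Klf2 and from 188 to 2307 CPM in Klf4. Both peaked in an unnamed cluster of 324 cells led by Hspa1a and Atf3 and came next in the unnamed cluster with arterial markers (3149 and 2203 CPM), which had 4332 CPM of Fos where the arterial-like cluster had 662 CPM. The HEV-like cluster, cells of the high endothelial venules through which lymphocytes enter lymph nodes, had the least Klf2 and also the least Nos3 (13.6 CPM). Over the 14 clusters of at least 50 cells Klf2 and Klf4 were correlated at 0.95 on log2(CPM + 10), Klf4 and Fos at 0.80 and Klf2 and Fos at 0.67, as a description of 1 library.

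Edn1 was highest in the arterial-like cluster, at 414 CPM (378 to 452), and at 2.79 CPM, or 2 UMIs, in a cluster led by Mki67. Nos3 was highest in a venous-like cluster, at 172 CPM (138 to 211), whose interval overlapped those of the arterial-like cluster (132 CPM), the unnamed one with arterial markers (166 CPM), a capillary-like one (141 CPM) and the one led by Hspa1a (118 CPM). Ptgs1 was highest in the same venous-like cluster, at 429 CPM (375 to 488), and lowest, on 6 UMIs, in the unnamed one with arterial markers. Next to the highest, at 350 CPM (318 to 384), was an unnamed cluster of 429 cells led by Meis2 and Plscr2, above the other venous-like cluster (271 CPM). Ednrb was highest in the unnamed cluster of 48 cells with pericyte markers, led by Col1a1 and Fst, at 826 CPM (731 to 931), followed by 327 CPM in an unnamed cluster led by Arc, Gm5 and Pacsin1. It parted the arterial clusters, at 54.5 CPM in the arterial-like and 294 CPM in the unnamed one. Its lowest level was in a venous-like cluster of 320 cells (12.9 CPM), but a capillary-like cluster of 803 cells was low too, at 46.5 CPM (37.4 to 57.2). Piezo1 ranged only from 49.5 to 126 CPM.

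Among the 6 TEC clusters the arterial-like one, of 45 cells, had the most Klf2 (1155 CPM), Klf4 (303 CPM), Nos3 (174 CPM) and Ednrb (354 CPM). It had only 35.0 CPM of Edn1 (23.3 to 50.7), below the tip-like cluster of 66 cells at 100.4 CPM (82.3 to 121), whereas among NECs the arterial-like cluster led in Edn1. The interferon-like cluster of 31 cells was second in Klf2 (961 CPM) and highest in Atf3 (451 CPM). Ptgs1 reached 35.1 CPM in an unnamed cluster led by Apoe, on 29 of the 44 UMIs of all TECs, and was at 13.0 CPM or less in the others. A shallow cluster of 35 cells (median 3291 UMIs) was lowest in Klf2, at 175 CPM (115 to 255), and held from 1 to 5 UMIs each of Klf4, Nos3, Edn1, Ednrb and Piezo1, too few to rank it in these.

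**Figure D5:**
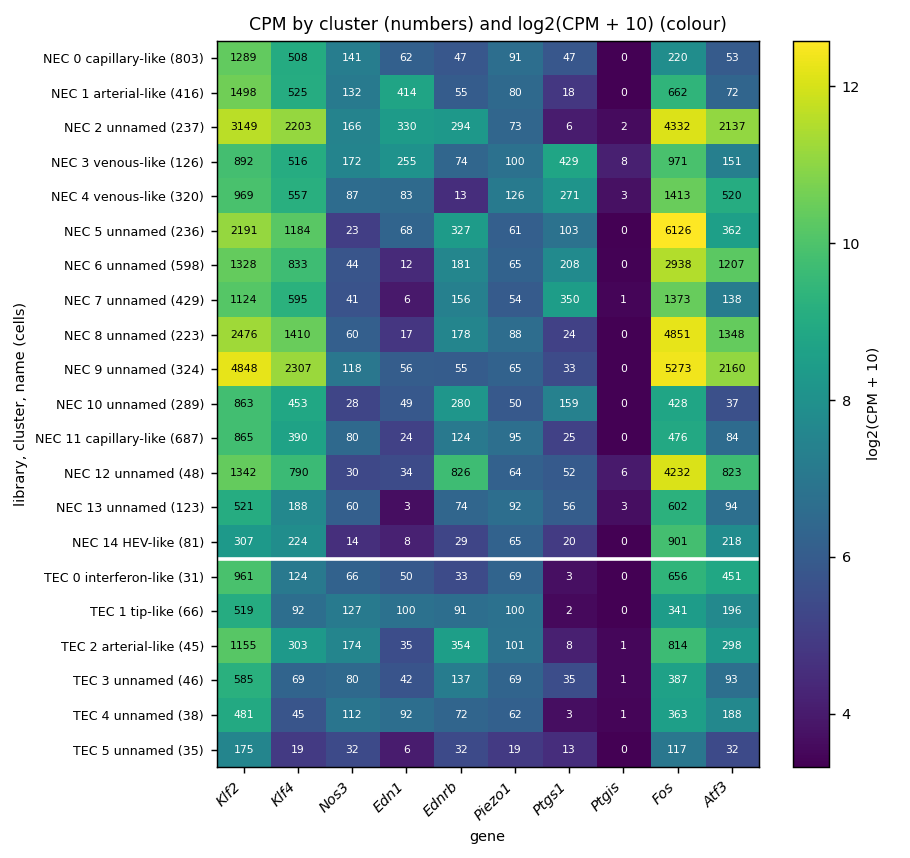
CPM of the 8 genes and of Fos and Atf3 in 15 NEC clusters (above the white line) and 6 TEC clusters, with numbers for CPM and colour for log2(CPM + 10). Rows give the library, the cluster, its name and its number of cells. Klf2 and Klf4 were highest in 2 unnamed clusters with Fos at 5273 and 4332 CPM, Edn1 in the arterial-like NEC cluster and Ptgs1 in a venous-like one.

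In single NECs thinned to equal depth, Klf2 and Klf4 were found together more often than apart. A Klf4 UMI was present in 65.8% of cells with a Klf2 UMI (64.0 to 67.5%) and in 36.2% of cells without (33.1 to 39.4%). Endothelin and its receptor went the other way, since 12.8% of cells with an Edn1 UMI held an Ednrb UMI (9.72 to 16.5%) against 20.8% of those without (19.4 to 22.2%). Nos3 was held by 19.2% of cells with Edn1 (15.5 to 23.4%) and 13.1% of those without, and by 9.16% of cells with Ednrb and 14.9% of those without. Median cells held 2 Klf2 and 1 Klf4 UMIs in NECs and 0 of each in TECs, and the other 6 genes were at 0 in the median cell of both.

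The genes whose levels over the 14 NEC clusters were most like each member were drawn from 5215 genes with at least 50 CPM in a cluster. For Klf2 they were Klf4 (Pearson r of 0.95), Wwc2 and Cdkn2aip, and for Klf4 Klf2, Cdkn2aip and Zcchc6. For Nos3 they were Nxn (0.96), Crip1 and Ppp1r12c, for Edn1 Ccdc80 (0.90), Phc2 and Osbpl1a, and for Ednrb Ckb (0.85), Timp3 and Psmd11. Piezo1 was most like Itpr1 (0.84), Actn1 and Meox2, and Ptgs1 most like Sned1 (0.95), Trim35 and Lfng. Ptgis was too low to be compared.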

How the data were processed

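The authors processed the reads with Cell Ranger and Seurat against mm10, per the labels, and deposited whole-number UMI counts for each gene and barcode, without normalization. The tables held barcodes of at least 500 UMIs, and 98.8% of the gene symbols of each were found in GENCODE M21 (GRCm38), from which positions were taken. Kept cells held 17327221 UMIs in NECs and 4646103 in TECs, and the interval of each value gives the precision this allows. The 8 genes, the marker and pathway lists and the gates were chosen with earlier results of these data known.

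Python 3.11.15, numpy 2.4.6 and scipy 1.17.1 gave the sums, intervals and thinned counts, which were checked on simulated counts. Each library was clustered with scanpy 1.11.5 (4000 variable genes without the 8 genes and immediate early genes, 20 PCs, 20 neighbors, resolution 0.8). A cluster was named when at least 3 markers of a list reached 25% of its cells and 2-fold above the rest, with 1 of them among its top 10 genes and no more markers of another list there. Scrublet called 0 of 6924 and 0 of 484 cells as doublets, which was not taken to mean that there were none. Removing the top 5% of scores was an alternative. In each pathway list up to 3 genes per direction with at least 50 UMIs were named (1 named gene is not reported here), and for each of the 8 genes the 3 most alike over clusters. Alternatives covered the filters on cells, depth, scaling, gates and Fos plus Atf3.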

Additional observations from a re-analysis of the deposited data

Results flagged for a closer look

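Cells removed before the comparisons held 3 of the genes at levels above those of the kept ECs of the same library, with intervals that did not overlap. In the tumor library Klf2 was at 1489 CPM (Poisson 95% interval 1466 to 1513) in 184 cells whose Rhox5 plus Hmga2 plus Krt8 UMIs equaled or exceeded Cdh5 plus Pecam1, against 679.7 CPM in the kept TECs, while Edn1 had 2 UMIs and Ednrb 0 in these cells.

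In the normal library 197 cells with UMIs of Myh11 or Cspg4 and none of Cdh5 or Pecam1 had Ednrb at 197 CPM (171 to 226), against 152 CPM in the kept NECs, and Ptgis at 8.41 CPM (3.85 to 15.96, from 9 UMIs), against 0.981 CPM.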

How the results depend on the processing

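Members past 2-fold were recounted under every alternative, and 114 of 136 counts stayed within 1.5 times the reported one. In tumor over normal, 1 member was higher among cells past the venous gate in both libraries, and 5 were lower with cancer-marked cells kept. In arterial over other cells, 1 was higher under 5% mitochondrial UMIs, with both Cdh5 and Pecam1 required, thinned, with a venous gate without Vwf and by class of cluster, and 2 were lower without Fos or Atf3 and by class of cluster. In venous over other cells, 1 was higher with Ptprc, Myh11, Epcam or Cspg4 cells kept, under 5% mitochondrial UMIs, thinned, at a minimum of 50 UMIs and among cells with the most Fos plus Atf3, and 2 were lower without Vwf. In arterial over venous cells, 2 were higher thinned and with the most Fos plus Atf3 and 1 without Fos or Atf3 and by class of cluster, and 2 were lower without Vwf and with the unnamed cluster of arterial markers added.

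Of the log2 ratios 8 of 417 changed sign where the reported interval excluded 0, and 16 of 82 where it held 0. Among the former, in tumor over normal, were Ednrb by the mean of per-cell CPM (0.074), without Fos or Atf3 (0.54) and past the venous gate (1.45), Edn1 past no gate (0.53) and Nos3 with cancer-marked cells kept (-1.10). By class of cluster they were Klf2 (-0.10) and Klf4 (-0.73) in arterial over other cells and Klf4 (-0.057) in arterial over venous cells. The cause was not tested. The latter were Piezo1 in 9 of 18 settings and Ptgis in 1 of 13 in tumor over normal, Ednrb in 2 and Piezo1 in 3 of 17 in arterial over other cells, and Piezo1 in 1 of 17 in arterial over venous cells. Tumor Piezo1 was above 0 by its interval in 3 of them, at 0.28 with Ptprc, Myh11, Epcam or Cspg4 cells kept, 0.39 by per-cell CPM and 0.22 with the median set to 0. At a minimum of 50 UMIs 4.70% of genes were higher in arterial than in other cells, 3.63% higher and 3.08% lower in venous than in other cells, and 4.32% higher in arterial than in venous cells. The gate comparisons within the tumor, the cancer-marked cells kept and the unnamed clusters were chosen after seeing the data. No paired analysis was possible because each condition had 1 library, and for the same reason no replicate could be left out. Counting intervals do not cover the spread between mice or libraries, and few TECs limit the tumor values.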
